A study of Mus musculus with 24 samples.

Results

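ND1 is the mitochondrial gene for a membrane subunit of respiratory complex I, the enzyme that passes electrons from NADH to ubiquinone. The cytosines described here are all those listed at chrM:2751-3705 of mouse build mm10 (GRCm38), on both strands. They number 359 of the 5829 listed for the whole mtDNA, of which 249 belong to the L strand and 110 to the H strand. The interval is 955 bases long and coding throughout, and the annotated coding sequence runs on to base 3707.

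The study asked whether mouse mtDNA carries 5-methylcytosine. Mitochondria were purified from E14 embryonic stem cells (ESCs) grown on feeder cells in 2i-LIF medium, and from brain and liver of mice that the labels give as C57BL/6J, with no age or sex in the sources used here. The study's methods also name liver of ICR mice, without saying for which experiments. The mitochondria were treated with benzonase, a nuclease, and their mtDNA was extracted, cut with a restriction enzyme, heat-denatured and treated with bisulfite for 5, 15, 40, 60 or 90 min. Synthetic mtDNA, a PCR product copied from native mtDNA and therefore free of 5-methylcytosine, was taken through the same denaturation, bisulfite treatment and sequencing. The 24 libraries come from 8 preparations. Treatments of 5, 15, 40 and 60 min were given to the synthetic preparation and to brain preparation 1, liver preparation 1, ESC preparation 1 and ESC preparation 2. Of ESC preparation 3 there are libraries of 60 and 90 min, and of the second brain and liver preparations there are libraries of 60 min only. There is 1 library per preparation and duration, and 1 synthetic preparation, so differences from synthetic mtDNA have no replicate on the synthetic side. ESC mtDNA comes from a single cell line, and the labels call the preparations of a tissue biological replicates. ESC, brain and liver mtDNA is called native, with 7 preparations at 60 min and 4 at each shorter duration.

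Bisulfite turns unmethylated cytosine into uracil, which is read as thymine, and leaves 5-methylcytosine as cytosine. It acts only on single-stranded DNA, so a cytosine can also stay unconverted because the strand was not accessible or the reaction was too short. For the L strand the study raises another possibility: copies made from H-strand fragments without cytosine could map there and appear unconverted. This was not tested here. The L strand of mouse mtDNA is poor in guanine and carries the sense sequence of ND1, whereas the H strand is its guanine-rich template. In ND1, 26.1% of the L-strand bases were cytosine and 11.5% were guanine. The unconversion rate given here is the percent of reads in which a cytosine remained cytosine, at sites with at least 10 reads, and a value for a library is the mean over its sites. The study left out reads with 90% or more unconverted cytosines and then reports nearly complete conversion of the L strand. The L-strand rates given here are far higher, so they are not the ones the study reports after that step.

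The L strand of ND1 was not uniform, and 7 stretches show its range. They were chosen after their values were seen, and are printed from the GRCm38 reference on the L strand. Every guanine is in capitals because, over all of ND1, the rate after 60 min was lower with more guanines nearby. Stretches 1, 4, 6 and 7 hold 1 guanine each and still differed, from 41.9% in stretch 1 to 95.3% in stretch 6 in native mtDNA after 60 min.

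Stretch 1, chrM:2768-2786: cctaacactcctcGtcccc
Stretch 2, chrM:2928-2991: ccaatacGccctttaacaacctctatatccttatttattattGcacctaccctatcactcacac
Stretch 3, chrM:3070-3099: caacatctaGcctatcaGtttactccattc
Stretch 4, chrM:3226-3263: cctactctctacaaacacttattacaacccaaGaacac
Stretch 5, chrM:3311-3352: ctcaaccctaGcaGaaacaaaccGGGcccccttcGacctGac
Stretch 6, chrM:3485-3527: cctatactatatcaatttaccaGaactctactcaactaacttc
Stretch 7, chrM:3603-3642: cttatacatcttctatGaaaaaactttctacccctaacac

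Stretch 5, which holds 7 guanines and 18 cytosines, was almost fully converted after 60 min. Its mean rate was 0.15% in brain preparation 1, 0.678% in brain preparation 2, 0.0444% in liver preparation 1 and 0.244% in liver preparation 2. It was 0.0333%, 0.278% and 0.189% in ESC preparations 1, 2 and 3, and 0.30% in synthetic mtDNA. Native and synthetic values overlapped, and the median coverage of these sites was 34 to 470.5 reads in native and 709.5 reads in synthetic mtDNA. Stretch 3, with 2 guanines of its own and up to 6 within reach of a site, was likewise converted, at 1.15% ± 1.46 (SD, n = 7 native preparations) and 0.74% in synthetic mtDNA.

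Stretch 6, which holds 1 guanine and 13 cytosines, stayed almost fully unconverted for the same 60 min. The rates were 97.9% in brain preparation 1, 96.6% and 92.9% in liver preparations 1 and 2, and 96.2%, 95.4% and 92.5% in ESC preparations 1, 2 and 3. Synthetic mtDNA was lower, at 84.1%, and brain preparation 2 had too few reads for a value. Stretches 5 and 6 thus lay at opposite ends of the scale within the same coding sequence and the same libraries. The median coverage of stretch 6 was 20 to 74 reads in the native libraries with a value and 41 reads in synthetic mtDNA. After 5 min it was 48 to 156 reads in native and 107 reads in synthetic mtDNA, so the later rates rest on fewer reads.

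Stretches 4 and 7 lay between these extremes. Stretch 4 was at 43.4% in brain preparation 1, 92.3% in brain preparation 2, 38.1% and 46.8% in liver preparations 1 and 2, 53.3%, 46.0% and 49.2% in ESC preparations 1, 2 and 3, and 42.6% in synthetic mtDNA. Brain preparation 2 stood far above the rest, and synthetic mtDNA lay within the range of the other native preparations. Stretch 7 was at 75.6% in brain preparation 1, 60.4% and 59.4% in liver preparations 1 and 2, 66.8%, 82.4% and 92.7% in ESC preparations 1, 2 and 3, and 57.0% in synthetic mtDNA. All 6 native values of stretch 7 lay above the synthetic value, and the value of ESC preparation 1 rests on 2 sites. Stretch 1 had a value in 3 native preparations, 41.9% ± 4.32 (SD, n = 3), beside 40.4% in synthetic mtDNA.

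Stretch 2 was almost unconverted at the start and almost without reads at the end. After 5 min its rate was 97.3% ± 1.43 (SD, n = 4 native preparations) and 96.0% in synthetic mtDNA, with a median of 43 to 117 reads per site in native mtDNA. After 60 min, native mtDNA had a median of 1 to 7 reads per site and only 2 libraries had any site with 10 reads, brain preparation 1 with 1 site at 70.0% and liver preparation 1 with 3 sites at 90.0%. Synthetic mtDNA, the deepest library of 60 min, still had a median of 23 reads per site and a rate of 70.9%. After 40 min, brain preparation 1 had 5 sites at 60.0%, ESC preparation 1 had 13 sites at 53.1%, and synthetic mtDNA had 1 site at 66.7%. The median was then 3 to 12 reads per site in native libraries and 7 in the synthetic library. Most of the 23 cytosines of this stretch therefore had no native value after the longer treatments at this depth.

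**Figure D1:**
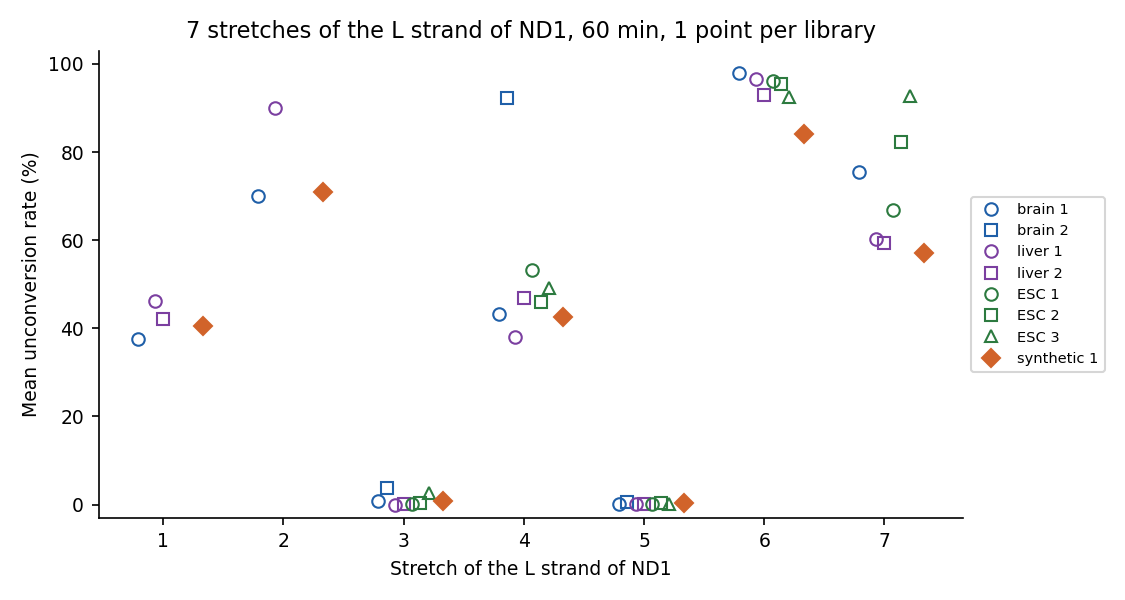
Mean unconversion rate (%, vertical axis) of the 7 stretches of the L strand of ND1 (horizontal axis) after 60 min, 1 point per library with at least 1 site of 10 or more reads, open symbols for native preparations and filled diamonds for synthetic mtDNA. Stretches 3 and 5 lie near 0 in every library, stretch 6 lies at 84.1% or more, and brain preparation 2 stands alone at 92.3% in stretch 4.

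Over all of ND1, the L-strand rate after 60 min followed the number of guanines among the 15 bases on either side of a cytosine. In native mtDNA it was 68.6% ± 12.9 (SD, n = 7) at cytosines with 0 or 1 guanine, 60.1% ± 6.66 with 2, 6.00% ± 3.0 with 3, 1.33% ± 1.66 with 4, and 0.523% ± 0.441 with 5 or more. In synthetic mtDNA the same classes were at 57.6%, 46.3%, 7.38%, 2.99% and 0.685%. The step between 2 and 3 guanines was larger than the spread between preparations in native mtDNA and was present in synthetic mtDNA. After 5 min the classes were less far apart, from 89.2% ± 1.88 (SD, n = 4) with 0 or 1 guanine to 48.0% ± 2.09 with 5 or more, and the class with 4 guanines, 68.3% ± 2.64, lay above that with 3, 60.9% ± 2.16.

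The 44 cytosines with at most 1 guanine, called guanine-poor here, were higher than the other L-strand cytosines of ND1 in 8 of 8 preparations after 60 min. Their mean was 67.2% ± 12.6 (SD, n = 8) against 20.6% ± 2.05, and the difference ranged from 35.2 percentage points in brain preparation 1 to 77.2 in brain preparation 2. The exact sign-flip permutation test gave p = 0.00781, the smallest that 8 preparations allow. With Benjamini-Hochberg adjustment over the 20 single-value tests of ND1 it was 0.0521 in this exact test, so no single-value result reported here passed 0.05 after adjustment. Only 3 to 27 of the 44 guanine-poor sites had 10 reads in a native library, against 38 in synthetic mtDNA. Across 143 sites covered in native mtDNA, the rate and the guanine count correlated at r = -0.62 (Spearman rho = -0.75). Neighbouring sites share reads and flanking bases, so this is a description.

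**Figure D2:**
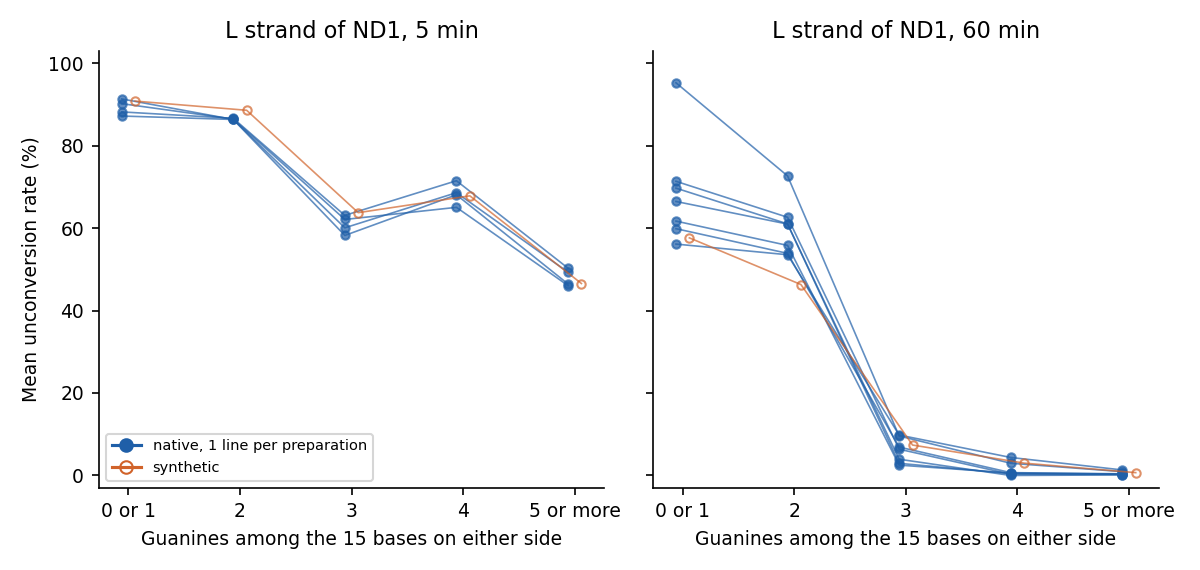
Mean unconversion rate (%, vertical axis) of L-strand cytosines of ND1 by the number of guanines among the 15 bases on either side (horizontal axis), after 5 min (left) and 60 min (right), 1 line per preparation, native filled and synthetic open. At 60 min every line drops between 2 and 3 guanines, and the uppermost native line, 95.2% at 0 or 1 guanine, is brain preparation 2.

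The sites with the highest mean among the 48 L-strand cytosines covered in all 8 libraries of 60 min all lay in stretch 4. They were L3237 at 66.9%, L3241 at 61.7%, L3234 at 61.0%, L3243 at 60.7% and L3250 at 59.3%, each named by strand and base. L3237 was at 60.2% in brain preparation 1, 96.4% in brain preparation 2, 52.4% and 66.3% in liver preparations 1 and 2, 72.3%, 59.3% and 69.5% in ESC preparations 1, 2 and 3, and 59.0% in synthetic mtDNA. Its coverage was 28 to 105 reads in native and 183 reads in synthetic mtDNA. None of the 5 is in a CG dinucleotide. The choice required 10 reads in brain preparation 2, which kept sites of stretches 6 and 7 out of it.

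After 5 min the highest sites were L3505 at 98.7%, L3510 at 98.6%, L2973 and L3517 at 98.5%, and L3504 at 98.3%, means over 5 libraries. L2973 lies in stretch 2 and the others in stretch 6, and each has 1 guanine among its flanking bases. The lowest value of the 5 sites in any 5 min library was 96.7%, so all 5 were almost untouched in native and synthetic mtDNA at that time.

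**Figure D3:**
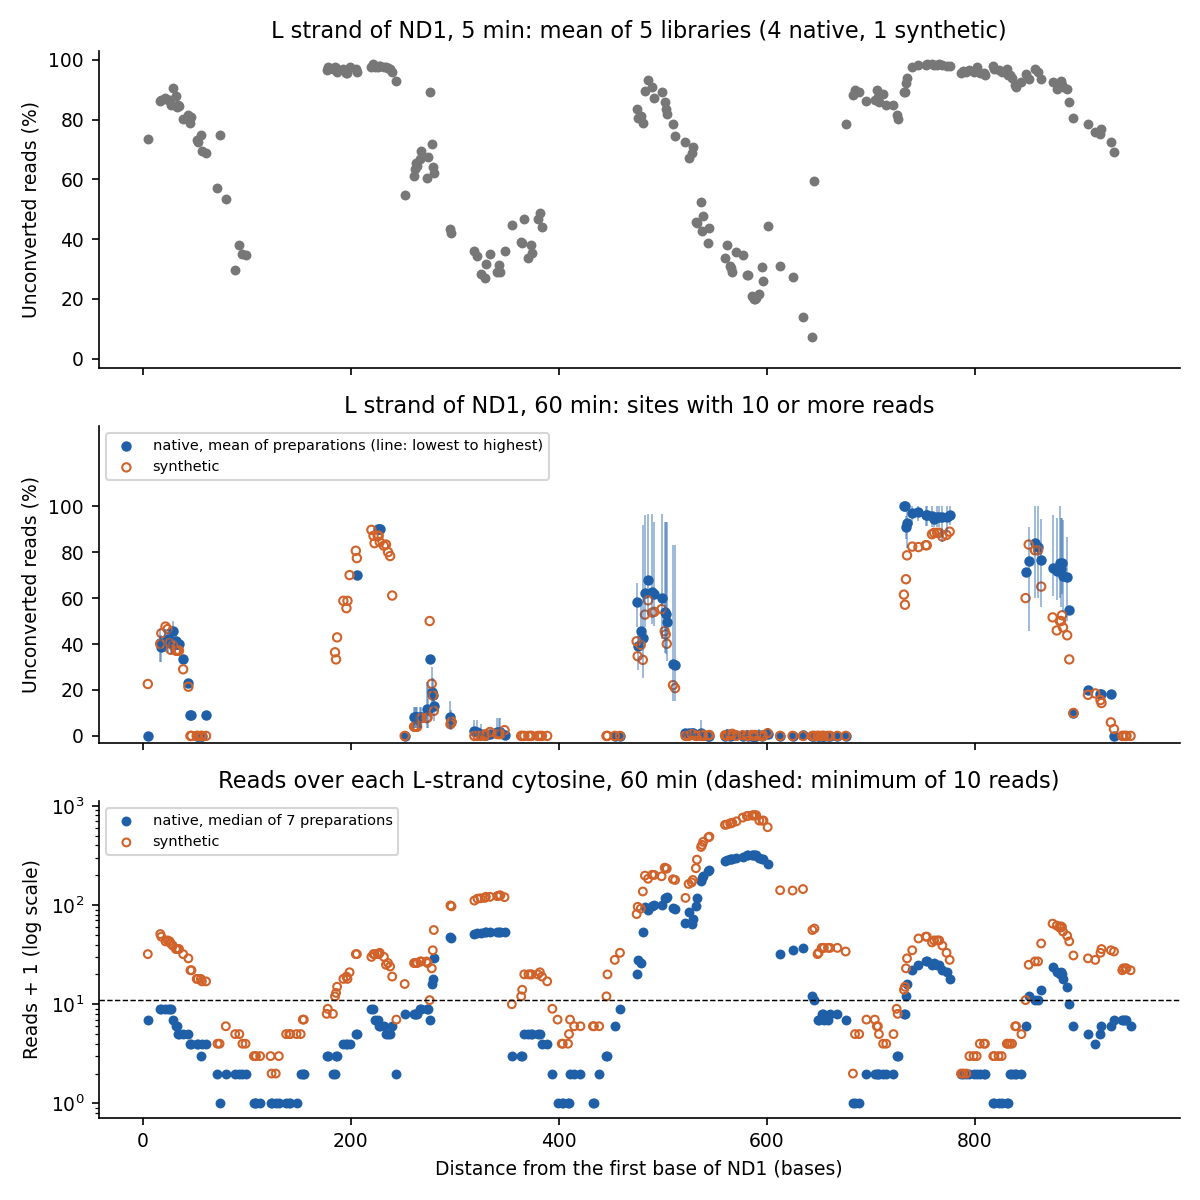
L-strand cytosines of ND1 by distance from its first base (horizontal axis, bases). The upper panel gives the mean rate over 5 libraries of 5 min, the middle panel the rate at 60 min in native (filled, line from lowest to highest preparation) and synthetic mtDNA (open), and the lower panel the reads per site on a log scale. Runs near 0% alternate with runs above 40%, and most native sites in the gaps lie below the dashed minimum of 10 reads.

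Fewer L-strand sites of ND1 had 10 reads after 60 than after 5 min in each preparation that had both. Reads summed over all L-strand sites of ND1 fell in these native preparations but rose in synthetic mtDNA, from 21932 to 24494. After 5 min, 204 to 239 of the 249 sites had 10 reads in native libraries and 227 in synthetic mtDNA. After 60 min, 138 sites had 10 reads in brain preparation 1, 48 in brain preparation 2, 96 in each liver preparation, and 78, 92 and 94 in ESC preparations 1, 2 and 3, while synthetic mtDNA had 177. Each native library of 60 min thus had fewer covered sites than the synthetic library. The synthetic library was also the deepest of that duration, with 24494 reads summed over the L-strand sites of ND1 against 1490 to 14315 in native libraries. The part of depth in this difference was not tested. The 34 sites covered in synthetic mtDNA alone had a mean rate of 32.4% there, the 48 sites covered in all 8 libraries had 10.5%, and 72 sites had 10 reads in none of the 8. Means over covered sites thus compare partly different cytosines. The median L-strand coverage in native mtDNA was 2 to 11 reads in ND1 and 4 to 24 in the rest of the mtDNA, and at a site of typical coverage among those used, 3 unconverted reads made up 4.69 to 10.7%.

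Averaged over covered sites, the L-strand rate of ND1 after 60 min was 27.8% in brain preparation 1, 22.8% in brain preparation 2, 31.1% and 31.2% in liver preparations 1 and 2, and 28.0%, 31.7% and 32.2% in ESC preparations 1, 2 and 3. Synthetic mtDNA was at 26.8%, below 6 of the 7 native values. The native mean was 29.2% ± 3.34 (SD, n = 7), a difference of 2.42 percentage points, and the exact permutation test gave p = 0.75 (adjusted 0.789), where 8 preparations cannot go below 0.125. With a minimum of 20 or 30 reads the difference turned to -2.15 or -13.7. At the 48 sites covered in all 8 libraries it was 2.15 (exact permutation test, p = 0.5), with brain preparation 2 at 22.8%, the other native preparations at 8.82 to 12.6% and synthetic mtDNA at 10.5%, above 2 of them. At the 74 sites covered in all libraries once brain preparation 2 was left out, an alternative added after the data were seen, native mtDNA was 3.04 percentage points higher and all 6 native values, 25.6 to 28.1%, lay above 24.0% in synthetic mtDNA. That exact permutation test gave p = 0.143, the smallest possible with 7 preparations.

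After 40 min the L-strand rate was 28.3% in brain preparation 1, 30.3% in liver preparation 1, 30.3% and 26.8% in ESC preparations 1 and 2, and 22.1% in synthetic mtDNA. The 4 native values lay above the synthetic value, by 6.80 percentage points on average, and the exact permutation test gave p = 0.2, the smallest 5 preparations allow. A threshold of 0.05 therefore could not be reached in either comparison.

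At single sites, the summed reads of the native preparations were set against synthetic mtDNA at 60 min with Fisher's exact test, adjusted over all 4129 tested sites of the mtDNA. It called 1 of 197 tested ND1 sites, against 1.02% of all sites. On the L strand this was 1 of 87, or 1.15%, against 1.77% of all tested L-strand sites in either direction and 0.532% higher in native mtDNA. This site was L3497 in stretch 6, unconverted in 98.0% of 199 native reads and 82.2% of 45 synthetic reads (adjusted p = 0.0248, Fisher's exact test with Benjamini-Hochberg adjustment). It was at 100% in brain preparation 1, 96.4% and 94.4% in liver preparations 1 and 2, and 100%, 93.5% and 100% in ESC preparations 1, 2 and 3, above synthetic mtDNA in 6 of 6. At 40 min it was at 91.3% in synthetic mtDNA, within the 86.4 to 100% of the native libraries. Without brain preparation 1 or without ESC preparation 1 no ND1 site was called, without liver preparation 1 or without liver preparation 2 there were 4 calls, and limma on the values of each preparation called 0 (17 at an unadjusted p under 0.05). Summed reads leave out the spread between preparations.

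The direction differed between the stretches. All 13 tested sites of stretch 6 and all 14 of stretch 4 had a higher rate in the summed native reads, as did 10 of 11 in stretch 7, with median differences of 8.94, 4.0 and 23.1 percentage points. In stretch 5, 12 of 18 sites were higher in synthetic mtDNA, with a median difference of -0.154. Over all 87 sites, 58 were higher in native mtDNA and the median difference was 0.769, and over all tested L-strand sites of the mtDNA it was 0. These stretches were chosen from the same values, and sites of a stretch share reads. At 40 min, stretch 6 was at 92.7% ± 3.87 (SD, n = 4 native preparations) against 88.9%, and stretch 7 at 71.9% ± 4.14 against 47.7%. Stretch 4 was then at 50.8% ± 4.89 against 39.8%. At 15 min stretch 6 was at 89.2% ± 2.46 (SD, n = 4) against 89.4%, stretch 7 at 68.6% ± 6.09 against 55.0%, and stretch 4 at 57.3% ± 5.49 against 65.1%. At 5 min they were at 97.3% ± 0.675 against 97.8%, 92.1% ± 2.94 against 92.6%, and 83.2% ± 4.69 against 87.8%. Stretch 4 was thus lower in native than in synthetic mtDNA at the shorter durations and higher at 40 min, and stretch 7 was higher from 15 min on.

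The means of ESC and tissue mtDNA over ND1 overlapped on both strands. The L-strand mean was 30.6% ± 2.29 (SD, n = 3) in ESC and 28.2% ± 3.94 (SD, n = 4) in tissue mtDNA, with p = 0.4 in the exact permutation test, whose smallest value is 0.0571. The difference of 2.40 percentage points turned to -1.66 at the 48 sites covered in all 7 preparations, and to -0.165 and -1.13 with a minimum of 20 reads and with calls pooled over sites. At the 48 sites, brain preparation 2 was at 22.8%, the other tissue preparations at 8.82 to 11.6% and ESC preparations at 10.55 to 12.6%. At the 74 sites shared once brain preparation 2 was left out, ESC values were 27.1 to 28.1%. The remaining tissue values there, 25.6 to 26.8%, lay below them, a difference that was not tested. The H-strand mean was 0.391% ± 0.118 (SD, n = 3) in ESC and 0.518% ± 0.139 (SD, n = 4) in tissue mtDNA (exact permutation test, p = 0.314). Site by site, limma called 0 of 193 ND1 sites and 0% of 3942 sites overall. At an unadjusted p under 0.05 it gave 7 ND1 sites, and Fisher's exact test on sums of reads called 0 and gave 9. A p above the threshold does not show equal rates, and low rates at a site rest on few unconverted reads in a single library.

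On the L strand of ND1 the 226 cytosines outside CG dinucleotides (CH) had higher rates than the 23 in CG after 60 min. Their means were 30.3% ± 3.29 and 3.35% ± 4.54 (SD, n = 8), higher at CH in 8 of 8 preparations (exact sign-flip permutation test, p = 0.00781, adjusted 0.0521). The CG value rests on 2 to 11 sites per library. CG sites had a median of 5 guanines among their flanking bases, their own included, and CH sites 3. Within classes of equal guanine count, an alternative added after the data were seen, the difference was 2.13 percentage points (exact sign-flip permutation test, p = 0.133). CG is the usual place of 5-methylcytosine in mammalian nuclear DNA.

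The gene also differed along its length. In the 319 bases at its 3′ end, the L-strand rate after 60 min was 56.4% in brain preparation 1, 74.9% and 73.9% in liver preparations 1 and 2, 81.5%, 89.5% and 81.9% in ESC preparations 1, 2 and 3, and 40.0% in synthetic mtDNA. Upstream of it the rates were 11.3 to 16.5% in these native preparations and 21.5% in synthetic mtDNA. Among native preparations the 3 ESC values of the 3′ part lay above the 3 tissue values, a difference noticed after the values were seen and not tested, over partly different sites. The 3′ part was higher than the rest in 7 of 7 preparations, by 56.2 percentage points on average (exact sign-flip permutation test, p = 0.0156, the smallest for 7, adjusted 0.0625), and brain preparation 2 had no covered site in it. The difference was 18.5 in synthetic mtDNA, where more sites were covered, and 42.4 to 78.2 in native mtDNA. On the H strand the 3′ part and the rest were at 0.503% ± 0.229 and 0.452% ± 0.0842 (SD, n = 8), and the exact sign-flip permutation test gave p = 0.406.

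Conversion of the L strand slowed after 15 min. In the 4 native preparations followed from 5 to 60 min, the mean rate was 70.9% ± 0.728 (SD, n = 4) at 5 min, 33.2% ± 2.56 at 15 min, 28.9% ± 1.67 at 40 min and 29.6% ± 2.03 at 60 min. Synthetic mtDNA passed through 71.0%, 34.5%, 22.1% and 26.8%. The changes of -37.8 and -4.22 percentage points by 15 and 40 min each gave p = 0.0286 in the exact permutation test between libraries (adjusted 0.0635), the smallest for 4 against 4. With the preparation as a block, which fits the design because each preparation was followed through time, the exact test gave p = 0.125 for both, the smallest 4 pairs allow, with a drop in 4 of 4 preparations. The 15 to 40 min change turned to 0.588 with a minimum of 20 reads. Between 40 and 60 min the change was 0.692 percentage points (exact permutation test, p = 0.543), up in 2 of 4 preparations.

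The H strand of ND1 converted further and more evenly. All 110 of its cytosines had at least 10 reads in each of the 24 libraries. Its mean rate was 30.8% ± 0.781 (SD, n = 4 native preparations) at 5 min, 5.06% ± 3.43 at 15 min, 0.480% ± 0.0942 at 40 min and 0.402% ± 0.116 at 60 min. Synthetic mtDNA passed through 27.5%, 3.09%, 0.523% and 0.495%. ESC preparation 1 was at 10.2% after 15 min, above 3.21 to 3.61% in the other native preparations, and was no longer apart after 40 min. The changes of -25.7 and -4.58 percentage points by 15 and 40 min each gave p = 0.0286 (adjusted 0.0635) in the exact permutation test, and p = 0.125 with the preparation as a block. The change of -0.0784 from 40 to 60 min did not stand out from the spread (exact permutation test, p = 0.314).

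**Figure D4:**
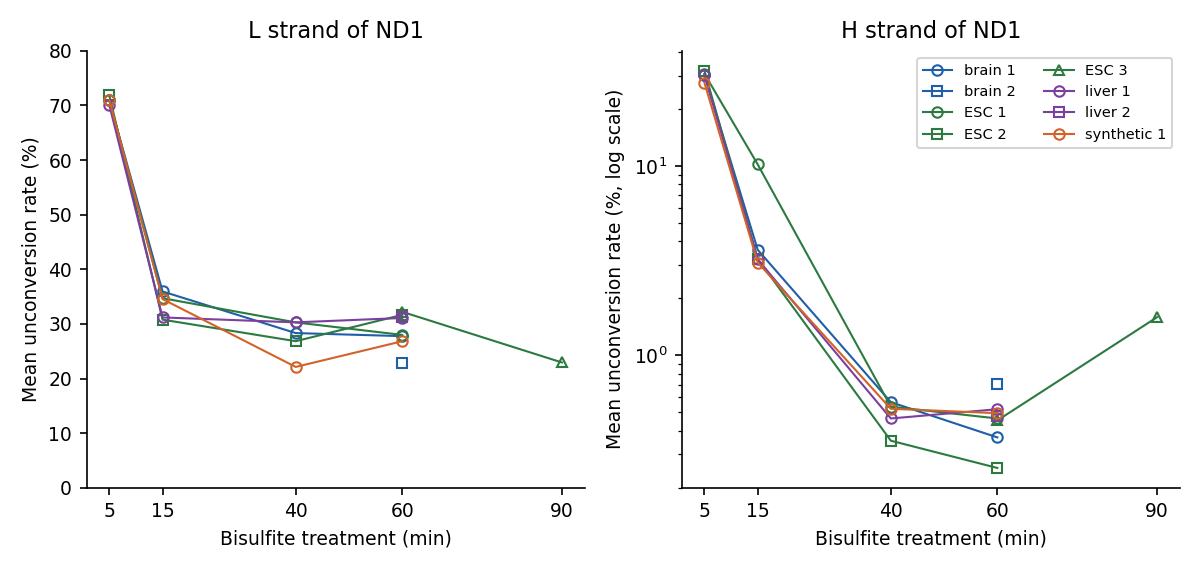
Mean unconversion rate of ND1 (%, vertical axis, log scale on the right) against minutes of bisulfite treatment (horizontal axis) on the L strand (left) and H strand (right), 1 line or symbol per preparation. On the L strand the 4 native preparations followed from 5 to 60 min lie near 30% at 40 and 60 min, over partly different sites. Synthetic mtDNA is at 22.1% and 26.8% there. The H strand falls below 1% by 40 min, with ESC preparation 1 high at 15 min and ESC preparation 3 at 1.59% after 90 min.

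After 60 min the H-strand mean was 0.369% and 0.703% in brain preparations 1 and 2, 0.52% and 0.481% in liver preparations 1 and 2, 0.465%, 0.255% and 0.454% in ESC preparations 1, 2 and 3, and 0.495% in synthetic mtDNA. The synthetic value lay inside the native range, and the native mean was 0.464% ± 0.137 (SD, n = 7). The exact permutation test gave p = 0.625, and p = 0.8 at 40 min. Fisher's exact test called 0 of 110 H-strand sites of ND1 against 0.107% of all H-strand sites tested, with 7 at an unadjusted p under 0.05, and limma called 0. At the median coverage of 104.5 to 471.5 reads in native libraries, 3 unconverted reads are a rate of 0.636 to 2.87%. A lower rate at a site of that coverage thus rests on fewer than 3 reads in the library. Within each library of 60 min, the L-strand mean of ND1 exceeded the H-strand mean by 22.1 to 31.8 percentage points (8 of 8, exact sign-flip permutation test, p = 0.00781, adjusted 0.0521).

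A few H-strand cytosines kept a rate well above this level, and they did so in synthetic mtDNA too. The 3 highest are printed on the H strand, 5′ to 3′, with 10 bases on either side and the cytosine itself in capitals.

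H3286, chrM:3276-3296: ggctatgggtCaggctggcag
H3350, chrM:3340-3360: ctccttctgtCaggtcgaagg
H3007, chrM:2997-3017: taggggaactCatagacttaa

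H3286 had a mean of 6.26% over the 8 libraries of 60 min. It was at 6.30% and 8.60% in brain preparations 1 and 2, 5.30% and 4.40% in liver preparations 1 and 2, 7.60%, 6.20% and 4.60% in ESC preparations 1, 2 and 3, and 7.10% in synthetic mtDNA, over 639 to 2587 reads. It was the highest of the 110 sites in each of these libraries, while the median of the others was 0.4% or less. In the 40 min libraries, which had no part in choosing it, it was again the highest in 5 of 5, at 4.60 to 9.10% in native libraries and 7.70% in the synthetic library. After 5 min it was at 37.4 to 47.1%, within reach of the other slow sites H3278, H2898, H3079 and H3007, whose means were 40.7%, 40.2%, 39.5% and 38.9% beside 40.9%.

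H3350 was at 2.84% ± 0.640 (SD, n = 7) in the native preparations, beside 3.40% in synthetic mtDNA, and H3007 at 1.80% ± 1.05 and 2.30%. H3690 and H3592, a CG site, followed with means of 1.09% and 1.0% over 8 libraries, and the remaining 105 sites had means under 1%. H3286 and H3350 both lie in GTCAGG on the H strand, noticed after their values were seen. The motif occurs 5 times on the H strand of the mtDNA, and the other 2 listed sites in it had means of 1.14% and 0.438%. Of the 1929 H-strand sites covered in at least 1 library of 60 min, H3286 ranked 18 and H3350 ranked 43. Each site entered by its mean over the libraries that covered it, so some means rest on fewer libraries. By these means, the highest rates of this strand lay outside ND1.

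**Figure D5:**
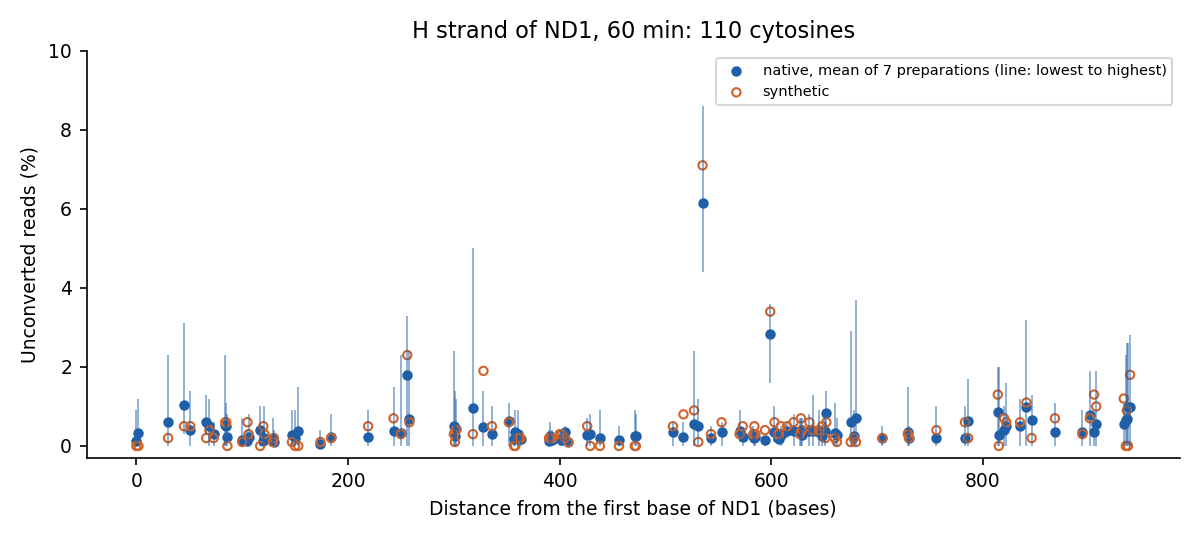
Unconverted reads (%, vertical axis) at the 110 H-strand cytosines of ND1 by distance from its first base (horizontal axis, bases) after 60 min, native mean of 7 preparations (filled, line from lowest to highest) and synthetic mtDNA (open). H3286, at 6.14% in native and 7.10% in synthetic mtDNA, and H3350 stand above the rest in both.

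Among mitochondrial genes, ND1 lay in the lower part of the order on the L strand. Its native mean after 60 min was 10 of 13 among the protein genes, far below ND6 at 99.5% and ATP8 at 98.9% and above COX1 at 2.62%. Its difference between native and synthetic mtDNA ranked 8 of 13, and its share of L-strand sites with 10 native reads, 36.8%, ranked 10. Within libraries, the L strand of ND1 was lower than the rest of the mtDNA in 6 of 8 preparations, with a mean difference of -3.33 percentage points (exact sign-flip permutation test, p = 0.0469, adjusted 0.0938). Brain preparation 2 set much of this, at -19.2, and without it the difference was -1.06 with p = 0.0938 in the exact test. Other choices of sites made it larger, -7.66 and -20.1 with a minimum of 20 and 30 reads, -26.3 with calls pooled over sites and -28.7 at sites covered in all 8 libraries, each with p = 0.00781 in the exact test over 8 preparations. Without brain preparation 2, it was -6.50 at the sites shared by the other 7 (exact test, p = 0.0156). ND1 was thus below the rest under each of these choices, by an amount that depended on which sites entered.

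At equal guanine counts in native mtDNA, the mean of ND1 lay above the rest of the L strand with 2 guanines and below it in the other classes. With 2 guanines it was at 60.1% ± 6.66 against 40.2% ± 6.31 (SD, n = 7), and with 3 guanines at 6.00% ± 3.0 against 18.2% ± 2.98. With 4 guanines it was at 1.33% ± 1.66 against 9.99% ± 1.08. With 0 or 1 guanine it was at 68.6% ± 12.9 against 77.3% ± 2.91, and with 5 or more at 0.523% ± 0.441 against 1.91% ± 0.285. Synthetic mtDNA showed the same order, 46.3% against 40.9% with 2 guanines and 7.38% against 19.9% with 3. The step between these classes was thus larger in ND1 than elsewhere in native and synthetic mtDNA, given as a description with no test.

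On the H strand, ND1 was 0.129 percentage points below the rest of the mtDNA, at 0.468% ± 0.128 against 0.597% ± 0.127 (SD, n = 8), lower in 7 of 8 preparations (exact sign-flip permutation test, p = 0.0156, adjusted 0.0625). The direction turned when reads were pooled over sites, to 0.137 percentage points higher in ND1 with p = 0.00781 in the same exact test, where pooling weights each site by its reads. H3286 and H3350, with 639 to 2587 and 555 to 2620 reads, are among the deepest ND1 sites. The order of ND1 and the rest on this strand thus depends on how sites are averaged.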

How the data were processed

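The members and lists, and most tests, were chosen with earlier results of these data known. Libraries were prepared by post-bisulfite adapter tagging and sequenced on a MiSeq. Per the labels and methods, the authors trimmed the first reads with Trim Galore, mapped them to mm10 mtDNA alone with Bismark and left replicates separate. Reads from nuclear copies of ND1, if any outlasted the nuclease, cannot be told apart. The authors deposited, for each cytosine, the percent of reads unconverted (1 decimal) and the coverage as a count of reads, neither corrected nor normalized. The study describes leaving out reads with 90% or more unconverted cytosines. Sites at 90% or more are present. After that step the study reports nearly complete L-strand conversion in native and synthetic mtDNA. Here the native L-strand mean after 60 min was 29.2% in ND1 and 32.7% in the rest of the mtDNA. These are not the values the study reports after that step, and they may precede it. The step cannot be repeated without reads, so its effect on the L-strand rates was not tested.

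Unconverted reads were taken as percent times coverage, rounded. Sites with 10 or more reads were used, and means run over sites. Libraries held 257028 to 2260572 calls (17874 to 148606 in ND1), and no 2 of the 24 were identical. All listed positions matched the GRCm38 mtDNA reference. Single values were compared by two-sided exact permutation tests over preparations with Benjamini-Hochberg adjustment over 20 tests. Sites were compared by Fisher's exact test or limma 3.58.1 on the empirical logit (offset 0.5) with adjustment over all sites. Both site tests were tried on simulated reads without spread between preparations, so the trial does not cover such spread. limma used sites with 10 reads in at least 5 of 7 preparations, with missing values left out. Named sites were, per strand, the 5 highest at 60 min, the 5 highest at 5 min and up to 5 called in each direction. Intervals and floors cover counting error only. Alternatives were minima of 20 and 30 reads, pooled calls, shared sites, leave-one-out, CH sites, another guanine window, other site tests and the replicate block. For the durations the block is the preparation itself, as the labels and study describe.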

Additional observations from a re-analysis of the deposited data

Results flagged for a closer look

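In 9 of 40 groups of 4 to 8 values, the highest or lowest value stood apart from the others by Dixon's criterion, which chance alone would flag in about 1 of 20 groups. In 8 of the 9 the value came from brain preparation 2 after 60 min, the native library with the fewest reads at that duration, and these 8 results share reads. Its L-strand rate was 92.3% in stretch 4, where the other native preparations were at 38.1 to 53.3%, and 0.678% in stretch 5, where they were at 0.0333 to 0.278%. Its difference between ND1 and the rest of the L strand was -19.2 percentage points, against -2.41 to 0.891 in the other preparations. Its guanine-poor cytosines exceeded the other L-strand cytosines of ND1 by 77.2 percentage points, against 35.2 to 50.8. Among the named sites it was at 96.4% at L3241 and L3250, 96.2% at L3234 and 92.9% at L3243, over 26 to 28 reads, where the other native preparations did not exceed 66.4%. The part of its low coverage in these values was not tested.

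The remaining value was the H-strand mean of ESC preparation 1 after 15 min, 10.2%, where the other 3 native preparations were at 3.21 to 3.61%. The same library was at 10.6% on the H strand of the rest of the mtDNA, where the others were at 3.43 to 3.67%.

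The library of ESC preparation 3 treated for 90 min enters no comparison. Its H-strand mean in ND1 was 1.59%, above 0.454% in the same preparation after 60 min and 0.495% in synthetic mtDNA after 60 min, while the median H-strand coverage was 79 reads against 354.5. On the L strand, 68 shared sites were at 22.9% after 90 min and 20.5% after 60 min. There is 1 library of this duration and no synthetic counterpart, so the difference was not tested.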

How the results depend on the processing

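Of 235 alternative values of the results on ND1, 182 kept their direction and their side of 0.05 in the unadjusted exact permutation test, or, for counts, stayed within 1.5 times the count reported. A further 29 kept the direction and lost the threshold, 3 gained it, 14 turned direction and 7 counts of called sites moved. With a minimum of 20 reads, native minus synthetic on the L strand after 60 min turned to -2.15, ESC minus tissue to -0.165, the change from 15 to 40 min to 0.588 and that from 40 to 60 min to -1.64. With 30 reads these were -13.7 for native minus synthetic, -1.55 from 15 to 40 min and -3.98 from 40 to 60 min, and the 3′ part exceeded the rest of the L strand by 58.1 in the few preparations that kept a value. With calls pooled over sites, ND1 exceeded the rest of the H strand by 0.137, the 3′ part of the H strand turned to -0.170, CH minus CG on the H strand rose to 0.299 and passed the threshold, ESC minus tissue on the L strand was -1.13, and the L-strand changes were -2.70 from 15 to 40 min and -0.260 from 40 to 60 min. At sites shared by all libraries compared, ESC minus tissue was -1.66 and the change from 40 to 60 min -0.436, and the 3′ part had no value because brain preparation 2 has no covered site there. Within equal guanine counts, added after the data were seen, CH minus CG was 2.13. Called sites between native and synthetic mtDNA numbered 3 with 20 reads, 0 with 30 reads and 0 with limma, beside 1. Leaving out each preparation in turn gave 0 to 4 called sites, -0.0717 to 0.00303 for native minus synthetic on the H strand (positive without ESC preparation 2), -3.93 to -1.06 for ND1 minus the rest of the L strand and 0.0752 to 0.127 for CH minus CG on the H strand. It gave -38.7 to -36.7, -5.33 to -3.09 and -0.683 to 1.69 for the L-strand changes from 5 to 15, 15 to 40 and 40 to 60 min, and -27.4 to -24.7 and -5.19 to -2.89 for the first 2 H-strand changes, where an exact permutation test of 3 against 3 cannot go below 0.1. With the replicate block the changes of -37.8, -4.22, -25.7 and -4.58 kept their size, with an exact permutation p of 0.125, the smallest possible. Between ESC and tissue mtDNA the replicate numbers are only numbers (correlations of their deviations over 158 sites were -0.788, -0.835 and 0.896), and the block gave 1.60 (L strand), -0.159 (H strand) and 0 called sites. The causes of these changes were not tested beyond what each alternative removes. Depth limits the L strand, where 72 of 249 sites had 10 reads in no library of 60 min.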

Other observations

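The mean rate after 60 min in native mtDNA differed with the base that follows a cytosine, on the H strand with a large part from 3 sites. On the L strand, cytosines followed by T were at 39.9%, those followed by A at 29.7%, by C at 21.3% and by G at 2.99%, means over 7 preparations. On the H strand, cytosines followed by A were at 0.882%, above 0.348% before C, 0.397% before G and 0.367% before T, and H3286, H3350 and H3007 are among those before A. These 3 sites had means of 6.26%, 2.91% and 1.86% over the libraries of 60 min, where the median of the 110 sites was 0.325%. They raise the mean before A, and a mean without them was not computed. By codon position, L-strand cytosines were at 36.4% in the first, 22.3% in the second and 29.9% in the third. The next base, the guanine count and the coverage differ together between these classes, and their parts were not tested.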
